A study of Mus musculus with 6 samples.

Results

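Imprinted genes were compared between a line of adult origin and a line of embryonic origin, both from the mouse hypothalamus. The members were a list of 38 mouse genes known to be imprinted, and a member counted as measured when the platform annotation named at least 1 probe set for it alone. Of the 38, 33 were measured, by 65 probe sets, among 12393 genes tested in all. H19 was covered only by a probe set shared with another gene, and no probe set named for it alone was found for Zrsr1, Ppp1r9a, Dio3 or Rtl1. Of the 33, 18 are known as paternally expressed, 14 as maternally expressed, and Gnas as either, depending on the transcript.

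RNA came from 3 plates of A_212, a line derived from adult mouse hypothalamus, and 3 plates of N_46, a line derived from embryonic mouse hypothalamus. Both lines are described as expressing neuropeptide Y (Npy), a feeding peptide of hypothalamic neurons, and both carry the SV40 T-antigen as immortalising gene, which blocks the cell's p53 and retinoblastoma brakes on division. RNA was taken at 70% confluence from cells kept in 5% foetal serum, with no treatment named. RNA of each plate was hybridised to 1 Affymetrix array, whose probe sets each read a transcript with several short probes.

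An imprinted gene is transcribed mainly or only from the copy inherited from the father, or mainly or only from that of the mother. For most such genes, DNA methylation laid down in the germ line marks the copies differently. Many imprinted genes lie in clusters that share a control region. Many also act on growth, on the placenta, on fat tissue and on hypothalamic control of feeding and hormones. Imprinting of some of them is limited to a tissue. Ube3a is silenced on the paternal copy in neurons only, and several genes of the Kcnq1 cluster are imprinted in placenta. The array sums both copies, so it gives the total transcript and not the allele it came from.

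In the deposited log2 values, each probe set has been centred so that its median across the 6 arrays is 0. Such values carry differences but no expression level, so it cannot be read from them whether a gene was expressed in either line, and a gene at background in both lines would show a difference near 0. Differences below are A_212 minus N_46 on the log2 scale, with the standard error (SE) of a limma fit over 3 arrays per line. Adjusted p-values are from limma with Benjamini-Hochberg adjustment over all 12393 genes, and a gene passed the test at an adjusted p under 0.05. Folds assume base 2, which the sources used here do not state. With 3 arrays per line, array number sets the limit on precision. Plates repeat a single line, so the tests rest on the spread between plates, and the age of the source tissue cannot be told apart from other differences between the lines.

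Of the 33 measured imprinted genes, 9 were higher and 7 were lower in A_212 than in N_46, and 17 did not pass the test. These 16 calls are 48.5% of the members, beside 39.2% of all genes tested (18.3% higher and 20.9% lower in A_212). Differences of at least 1 on the log2 scale that passed the test were found for Ndn, Impact, Igf2r and Mest, which is 12.1% of the members beside 5.83% of all genes. In 19 members (57.6%) all A_212 arrays lay on one side of all N_46 arrays, beside 51.1% of all genes. The median difference was -0.06 over the members and -0.06 over all genes. The members' median was -0.032 without A_212 plate 1 and -0.11 without A_212 plate 3, and turned to 0.046 with each chromosome's median taken out. The median SD between plates over the members was 0.12 in A_212 and 0.07 in N_46, beside 0.10 and 0.08 over all genes.

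By parental class the counts were as follows. Of the 18 paternally expressed genes, 8 were higher in A_212 (44.4%), 2 were lower (11.1%) and 8 did not pass. Their median difference was 0.06. Of the 14 maternally expressed genes, 1 was higher in A_212 (7.14%), 5 were lower (35.7%) and 8 did not pass. Their median was -0.09. Over all genes tested, 18.3% were higher and 20.9% lower, with a median of -0.06. The shares called in either direction were 55.6% of the paternally and 42.9% of the maternally expressed genes, beside 39.2% of all genes. Without N_46 plate 1, 5 paternally expressed genes passed on the higher side. Plain probe sets are those whose names end in _at with no letter before it. With these alone, 3 maternally expressed genes (Asb4, Cdkn1c and Ube3a) were lower. Copg2 and Tssc4 have no plain probe set and were not run in that setting. With each chromosome's median taken out, the maternal median turned to 0.0033 and the paternal median was 0.15. Without A_212 plate 3 the maternal median was -0.15 and the paternal median 0.017. The paternal median was also 0.10 without A_212 plate 1 and 0.031 without N_46 plate 1. The difference between the classes was not tested.

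**Figure D1:**
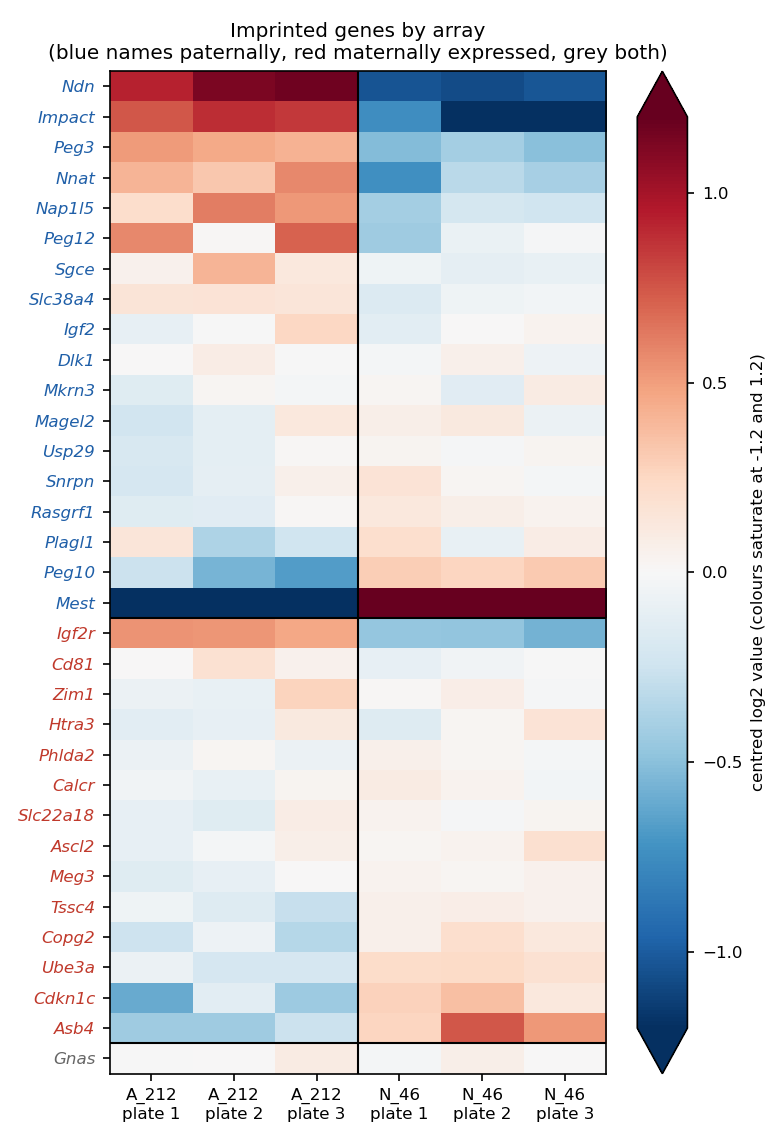
Centred log2 values of the 33 measured imprinted genes (rows) on the 3 A_212 and 3 N_46 arrays (columns), with the colour scale saturating at -1.2 and 1.2. Ndn, Impact, Peg3 and Igf2r were above 0 on every A_212 array and below 0 on every N_46 array, and Mest showed the reverse. With values centred on the median, any probe set whose lines do not overlap splits at 0. Other members, such as Nnat and, in reverse, Peg10, split in this way too.

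**Figure D2:**
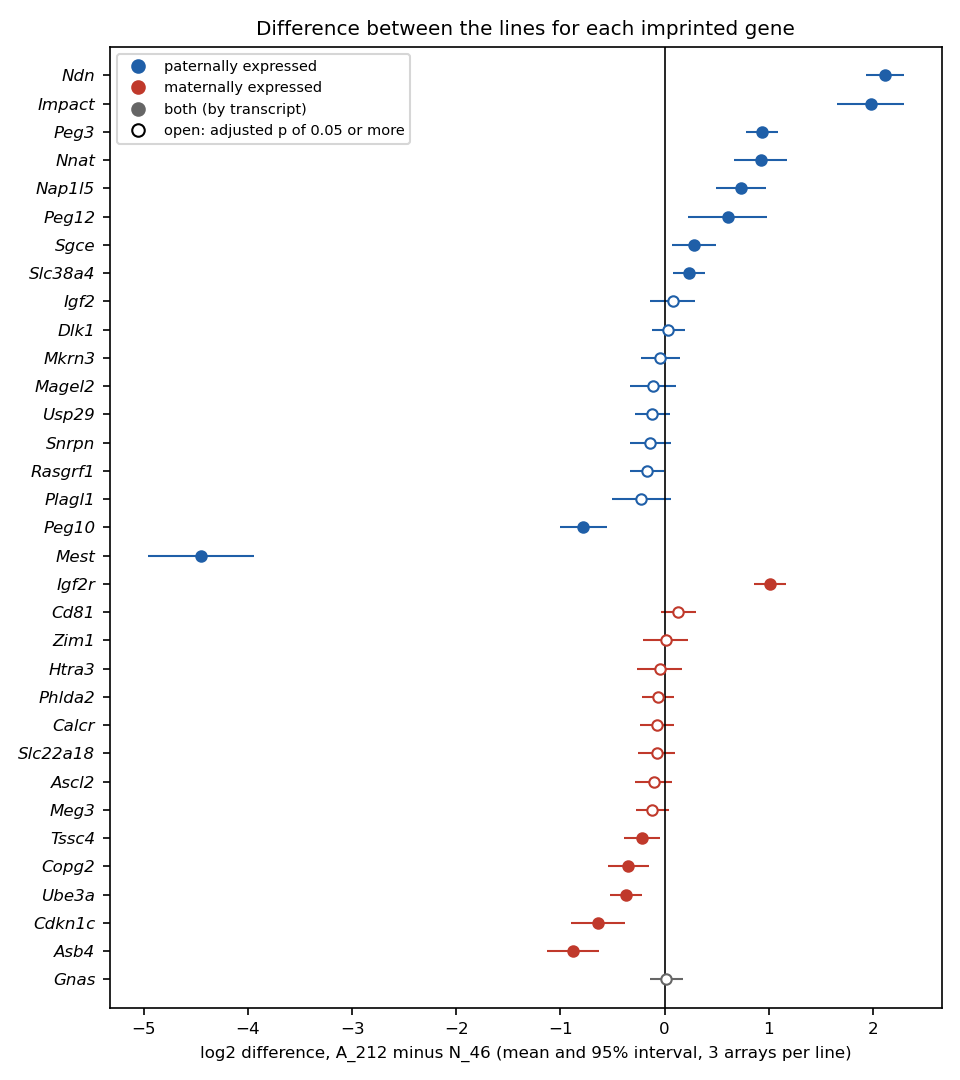
Log2 difference, A_212 minus N_46, of each measured imprinted gene with its 95% interval from limma (3 arrays per line), where filled points passed the test. Blue points are paternally expressed, red points maternally expressed and the grey point is Gnas. By gene mean, Mest at -4.45 (1 probe set) and Ndn at 2.12 (8 probe sets) are the ends of the range.

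Taken as the mean over a gene's probe sets, Mest had the largest difference of all members and was lower in A_212. Mest was read by 1 probe set, and of the 8 probe sets of Ndn the highest differed by 4.48. Mest encodes an enzyme of the hydrolase fold and is strongly expressed in embryonic mesoderm and in expanding fat tissue. Its centred values were -2.37, -2.28 and -1.91 on the A_212 arrays and 2.91, 1.98 and 1.91 on the N_46 arrays. The lines did not overlap, and N_46 plate 1 stood above the other two plates of its line. The difference was -4.45 ± 0.23 (SE, n = 3 arrays per line, limma adjusted p = 1.3e-07), which is 21.9-fold lower in A_212. Without 1 array in turn and under the other settings it stayed between -4.63 and -4.13. Copg2, its maternally expressed neighbour on chromosome 6, encodes a subunit of the coat of Golgi transport vesicles. Copg2 was at -0.25, -0.06 and -0.34 in A_212 and at 0.06, 0.20 and 0.13 in N_46. The difference was -0.35 ± 0.09 (limma adjusted p = 0.0089), in the same direction as Mest but far smaller.

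Among the genes of the Prader-Willi/Angelman cluster on chromosome 7, Ndn and Peg12 were higher in A_212 and Ube3a was lower. Ndn encodes necdin, a protein of the MAGE family that is abundant in postmitotic neurons and binds E2F1 and p53. As the mean of its 8 probe sets, Ndn was at 0.92, 1.13 and 1.17 in A_212 and at -1.03, -1.07 and -1.03 in N_46. The difference was 2.12 ± 0.08 (limma adjusted p = 1.4e-08), or 4.34-fold. The probe sets divided sharply. Tested one by one over all probe sets, of which 37.4% passed (17.8% higher and 19.6% lower in A_212), 4 of the Ndn probe sets differed by 3.29, 4.06, 4.26 and 4.48 and another by 0.93, and all 5 passed. The other 3 differed by -0.09, -0.04 and 0.05 and did not pass (limma adjusted p from 0.52 to 0.84). In the probe set with the difference of 4.48, the values were 2.10, 2.53 and 2.26 in A_212 and -2.30, -2.10 and -2.14 in N_46. The mean therefore lay well below the values of the probe sets with the larger differences. Probe sets marked as prone to bind other transcripts made up 2 of the 4 with the largest differences and 2 of the 3 near 0. The probe set at 0.93 carried the same mark.

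Peg12, which encodes a member of the Frat family of GSK3-binding proteins, was at 0.57, 0.01 and 0.71 in A_212 and at -0.43, -0.08 and -0.01 in N_46. A_212 plate 2 and N_46 plate 3 lay almost side by side. The difference was 0.60 ± 0.17 (limma adjusted p = 0.016), and it no longer passed without A_212 plate 1 (0.53, adjusted p = 0.054), without A_212 plate 3 (0.47, adjusted p = 0.073) or without N_46 plate 1 (0.48, adjusted p = 0.059). Ube3a encodes the ubiquitin ligase whose maternal copy is lost in Angelman syndrome in humans. It was at -0.07, -0.21 and -0.20 in A_212 and at 0.22, 0.23 and 0.18 in N_46. The difference was -0.37 ± 0.07 (limma adjusted p = 0.0019). Its 4 probe sets all had a lower value in A_212, with differences from -0.49 to -0.25, and 3 of them passed.

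The other 3 measured genes of the cluster did not pass. Magel2 encodes a MAGE protein that works with a ubiquitin ligase in endosomal protein recycling, and it differed by -0.11 (95% interval -0.33 to 0.11). Mkrn3 encodes a ring-finger protein whose loss brings early puberty in humans, and it differed by -0.04 (-0.23 to 0.15). Snrpn encodes a neuronal splicing protein, and its 1 unshared probe set differed by -0.14 (-0.33 to 0.06). A further 4 probe sets were named for both Snurf and Snrpn and were left out.

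Ndn and Magel2 are neighbours whose differences were 2.12, which passed, and -0.11, which did not. The 250 bases before their RefSeq starts (assembly GRCm38.p6) are shown to set the windows side by side. The Ndn window is chr7:62348027-62348276 and the Magel2 window is chr7:62376729-62376978, both on the plus strand. Capitals mark matches, on either strand, to 4 motifs. TGCCGC is the motif of the imprint-protecting factor ZFP57. The core of the motif of the transcription factor YY1 was searched as CCATNTT. The GC box, which the factor SP1 binds, was searched as GGGCGG. The TATA box was searched as TATAAA.
Ndn: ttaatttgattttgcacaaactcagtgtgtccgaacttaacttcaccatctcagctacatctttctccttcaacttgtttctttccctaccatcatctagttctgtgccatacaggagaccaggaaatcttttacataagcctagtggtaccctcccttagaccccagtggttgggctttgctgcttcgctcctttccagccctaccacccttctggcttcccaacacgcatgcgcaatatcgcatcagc
Magel2: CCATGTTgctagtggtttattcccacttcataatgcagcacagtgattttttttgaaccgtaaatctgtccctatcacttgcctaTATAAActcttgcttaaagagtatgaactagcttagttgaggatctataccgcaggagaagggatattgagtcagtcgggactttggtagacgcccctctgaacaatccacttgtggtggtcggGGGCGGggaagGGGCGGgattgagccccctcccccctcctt
The Ndn window held none of the 4 motifs and 5 CG pairs, and the Magel2 window held 1 YY1 core, 1 TATA box, 2 GC boxes and 7 CG pairs. Among all 32851 windows of the RefSeq table, 12.4% held a YY1 core, 12.4% a TATA box, 32.7% a GC box and 8.68% a ZFP57 motif. A ZFP57 match can overlap a GC box read on the other strand. Promoters were found for 32 of the 38 listed genes in 49 windows. Of these windows, 14.3% held a YY1 core, 20.4% a TATA box, 51.0% a GC box and 16.3% a ZFP57 motif. Each window of a gene with several, such as Gnas or Igf2, was counted, and genes not measured here were included. The shares are thus of windows and not of genes. The median number of CG pairs was 10 in the windows of imprinted genes and 6 in all windows. A match is a description of letters and not of binding.

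Peg3, also on chromosome 7, was higher in A_212. It encodes a zinc finger transcription factor that affects growth and maternal behaviour in mice. Peg3 was at 0.51, 0.45 and 0.42 in A_212 and at -0.52, -0.41 and -0.50 in N_46. The plates of each line lay close together, and the lines stood far apart. The difference was 0.94 ± 0.07 (limma adjusted p = 2.5e-06), or 1.91-fold. Its 3 probe sets differed by 0.42, 0.82 and 1.57, and all 3 passed. Usp29 starts head to head with Peg3 and encodes a protein of the deubiquitinase family. It differed by -0.12 (95% interval -0.29 to 0.05), from 2 probe sets at -0.19 and -0.05. Zim1, a maternally expressed zinc finger gene beside Peg3, differed by 0.01 (-0.21 to 0.23).

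The RefSeq starts of Peg3 and Usp29 are 164 bases apart on opposite strands, so the bases before both starts are largely the same DNA. The Peg3 window of 250 bases is chr7:6730420-6730669 on the minus strand and the Usp29 window is chr7:6730333-6730582 on the plus strand (GRCm38.p6). Capitals mark the 163 bases that both windows share, read in opposite directions.
Peg3: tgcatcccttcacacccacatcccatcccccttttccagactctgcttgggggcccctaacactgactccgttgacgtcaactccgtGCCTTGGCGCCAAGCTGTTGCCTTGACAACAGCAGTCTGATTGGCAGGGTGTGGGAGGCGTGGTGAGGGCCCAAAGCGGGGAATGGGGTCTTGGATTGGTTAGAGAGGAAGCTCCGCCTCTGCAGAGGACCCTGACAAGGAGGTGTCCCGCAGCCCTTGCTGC
Usp29: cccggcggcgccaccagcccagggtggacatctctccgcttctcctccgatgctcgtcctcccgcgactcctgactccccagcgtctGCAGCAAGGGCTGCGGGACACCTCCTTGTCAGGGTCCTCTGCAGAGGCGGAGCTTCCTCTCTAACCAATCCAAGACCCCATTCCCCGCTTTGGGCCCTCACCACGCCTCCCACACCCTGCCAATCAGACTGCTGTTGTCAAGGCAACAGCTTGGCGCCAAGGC
The Peg3 window held 8 CG pairs and the Usp29 window 14, and neither window held any of the 4 motifs. The transcripts on the sides of this shared stretch thus had a difference of 0.94 for Peg3, which passed the test, and of -0.12 for Usp29, which did not.

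The Peg10 cluster on chromosome 6 went both ways. Peg10, a gene derived from a retrotransposon and needed for the mouse placenta, was at -0.26, -0.55 and -0.67 in A_212 and at 0.30, 0.26 and 0.31 in N_46. The N_46 plates were close together and the A_212 plates spread more widely. The difference was -0.78 ± 0.10 (limma adjusted p = 0.00014). Sgce, which starts head to head with Peg10 and encodes a sarcoglycan mutated in an inherited dystonia in humans, was at 0.05, 0.41 and 0.13 in A_212 and at -0.05, -0.11 and -0.09 in N_46. Its difference was 0.28 ± 0.09 (limma adjusted p = 0.038), in the opposite direction to Peg10. The Sgce call was lost without A_212 plate 2 (0.17, adjusted p = 0.12) and without N_46 plate 1, 2 or 3 (adjusted p = 0.059, 0.10 and 0.092).

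Asb4, a maternally expressed gene of this cluster, encodes a substrate receptor of a ubiquitin ligase and is expressed in the arcuate nucleus of the hypothalamus. It was at -0.43, -0.43 and -0.26 in A_212 and at 0.26, 0.74 and 0.52 in N_46. The difference was -0.88 ± 0.11 (limma adjusted p = 0.00014), or 1.84-fold lower in A_212, and both probe sets passed, at -1.17 and -0.59. Calcr, the calcitonin receptor gene, differed by -0.07 (95% interval -0.23 to 0.09).

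**Figure D3:**
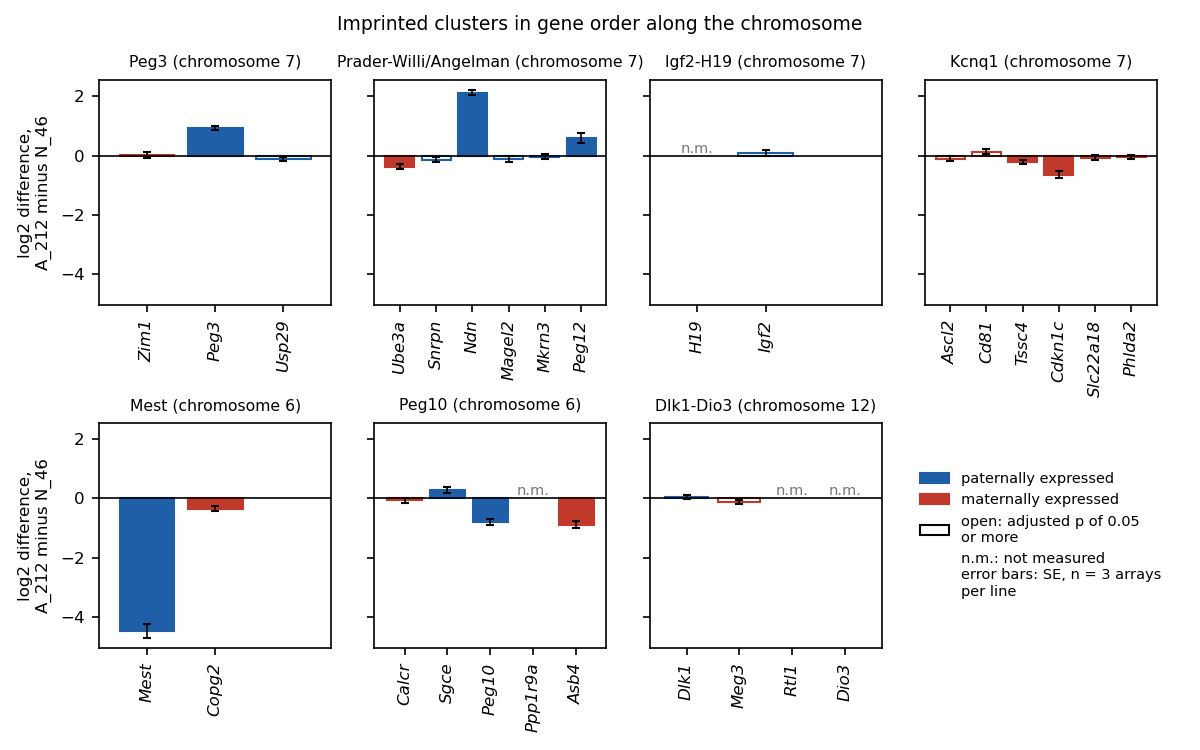
Log2 difference, A_212 minus N_46, of the listed genes of 7 imprinted clusters in their order along the chromosome, with SE bars (3 arrays per line). Filled bars passed the test, and n.m. marks a gene that was not measured. Among genes that passed, Sgce (0.28) and Peg10 (-0.78) have opposite signs in the Peg10 cluster, as do Ndn (2.12) and Ube3a (-0.37) in the Prader-Willi/Angelman cluster, and in the Peg3 cluster only Peg3 passed.

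Of the maternally expressed genes of the Kcnq1 cluster on chromosome 7, Cdkn1c and Tssc4 were lower in A_212 and 4 did not pass. Cdkn1c encodes p57, an inhibitor of cyclin-dependent kinases that restrains embryonic growth. It was at -0.60, -0.13 and -0.44 in A_212 and at 0.27, 0.36 and 0.13 in N_46. A_212 plate 2 stood nearest to N_46. The difference was -0.64 ± 0.12 (limma adjusted p = 0.0014), or 1.56-fold lower in A_212. Tssc4, which in human cells takes part in assembling a splicing complex, was at -0.05, -0.15 and -0.28 in A_212 and at 0.06, 0.08 and 0.05 in N_46. Its difference of -0.22 ± 0.08 passed narrowly (limma adjusted p = 0.046) and did not pass in 9 of 13 other settings, among them both scalings and the leaving out of any array but A_212 plate 1. The other 4 differed by 0.13 for the tetraspanin gene Cd81, -0.06 for Phlda2, a brake on placental growth, -0.07 for the transporter gene Slc22a18, and -0.11 for Ascl2, a transcription factor gene of placenta and gut stem cells. The median difference of chromosome 7, which holds 16 of the 33 members, was -0.13. With each chromosome's median taken out, Cd81 passed at 0.25 (limma adjusted p = 0.024) and Tssc4 differed by -0.10 (adjusted p = 0.41).

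In the growth factor pair Igf2 and Igf2r, the receptor differed and the ligand did not pass. Igf2r encodes the receptor that clears the growth factor IGF2 and sorts lysosomal enzymes. It is expressed from the maternal copy in most mouse tissues and from both copies in neurons. Igf2r was at 0.54, 0.53 and 0.46 in A_212 and at -0.47, -0.48 and -0.57 in N_46. The difference was 1.01 ± 0.07 (limma adjusted p = 1.3e-06), or 2.02-fold, and its 2 probe sets lay close together, at 0.995 and 1.03. It was the only maternally expressed member that passed on the higher side, apart from Cd81 when chromosome medians were taken out. Igf2 itself differed by 0.08 (95% interval -0.14 to 0.30), from probe sets at -0.05 and 0.21, and its sign changed in 2 of 14 settings. The Dlk1-Dio3 cluster on chromosome 12 likewise gave no call. Dlk1, an inhibitor of fat cell differentiation related to Notch ligands, differed by 0.04 (-0.12 to 0.20), and the noncoding RNA Meg3 by -0.12 (-0.27 to 0.04) over 5 probe sets from -0.21 to 0.05.

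Of the 9 measured genes that lie outside these 7 clusters, 5 were higher in A_212, Igf2r among them, and none was lower (4 did not pass). Over all genes tested, 18.3% were higher and 20.9% lower in A_212, and a departure of these few genes from those shares was not tested. Impact encodes an inhibitor of GCN2, the kinase that senses amino acid shortage. It was at 0.74, 0.88 and 0.85 in A_212 and at -0.74, -1.35 and -1.36 in N_46. N_46 plate 1 lay well above the other plates of its line and still below all A_212 plates. The difference was 1.98 ± 0.15 (limma adjusted p = 2.1e-06), or 3.94-fold. Impact lies on chromosome 18, whose median difference was 0.13.

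Nnat encodes neuronatin, a small membrane protein of the endoplasmic reticulum in neurons and beta cells. It was at 0.41, 0.32 and 0.58 in A_212 and at -0.74, -0.32 and -0.40 in N_46, with a difference of 0.92 ± 0.11 (limma adjusted p = 9e-05). Nap1l5, a gene related to nucleosome assembly factors, was at 0.21, 0.61 and 0.52 in A_212 and at -0.40, -0.21 and -0.24 in N_46, with a difference of 0.74 ± 0.11 (limma adjusted p = 3e-04). For both genes the lines did not overlap. Slc38a4, which encodes a sodium-coupled neutral amino acid transporter, differed by only 0.24 ± 0.07 (limma adjusted p = 0.021). Neither of its 2 probe sets passed alone (0.27 and 0.20), and the gene no longer passed without A_212 plate 2, N_46 plate 1 or N_46 plate 2 (adjusted p = 0.052, 0.061 and 0.055) or without A_212 plate 1.

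The remaining genes outside the clusters did not pass. Plagl1, a zinc finger gene that restrains cell growth, differed by -0.22 (95% interval -0.51 to 0.06). Its values were 0.14, -0.37 and -0.24 in A_212 and 0.20, -0.09 and 0.09 in N_46, and without A_212 plate 1, the one A_212 plate above 0, it passed at -0.37 (limma adjusted p = 0.019). Rasgrf1, an activator of Ras in neurons, differed by -0.17 (-0.33 to -0.004, limma adjusted p = 0.099), and passed in 3 of 14 other settings. For Rasgrf1 the lines did not overlap. Htra3, a secreted protease gene, differed by -0.05 (-0.27 to 0.17). Gnas encodes the G protein subunit that activates adenylyl cyclase and makes transcripts from either or both copies. It differed by 0.02 (-0.14 to 0.17) over 4 probe sets from -0.16 to 0.23. Over all 17 genes that did not pass, differences ran from -0.22 to 0.13 and the bounds of their 95% intervals from -0.51 to 0.30.

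Several probe sets were available for 15 of the 33 genes, and 18 had 1. Of the 65 probe sets, 24 passed when tested one by one, 15 higher and 9 lower in A_212, beside 37.4% of all probe sets. In Igf2r, Peg3 and Asb4 all probe sets passed in 1 direction, in Ndn and Ube3a some passed, and in 10 genes none did. Differences of both signs were found among the probe sets of 6 genes, and in 0 genes did probe sets with opposite signs both pass. The range from the lowest to the highest probe set was 4.57 in Ndn, 1.15 in Peg3 and 0.59 in Asb4, against 0.03 in Igf2r.

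**Figure D4:**
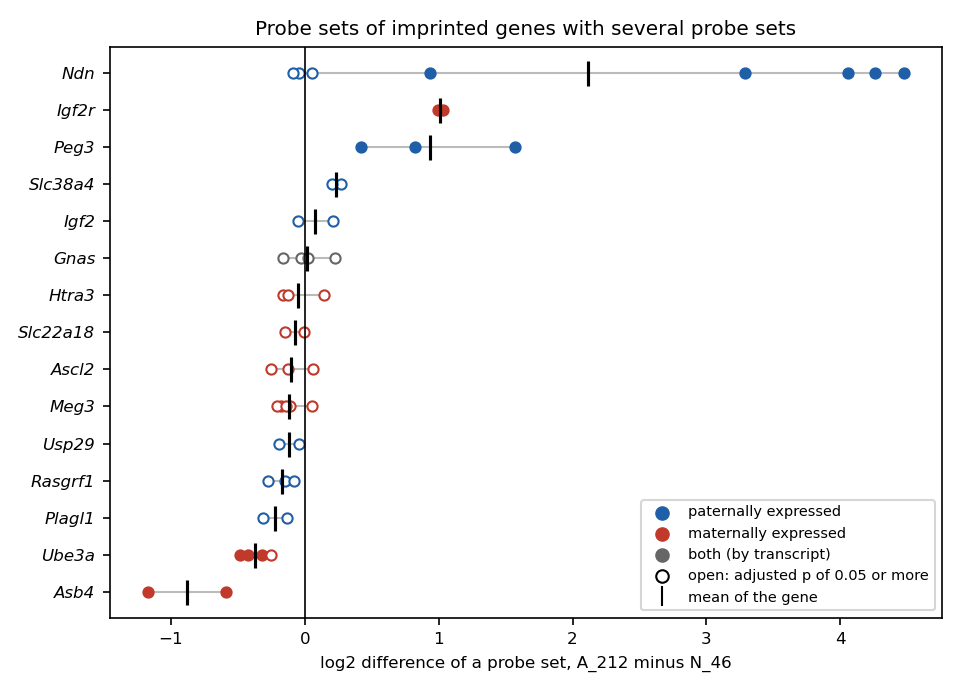
Log2 difference, A_212 minus N_46, of each probe set of the 15 imprinted genes with several probe sets. Filled points passed the test, and the black mark is the gene's mean. The 8 probe sets of Ndn run from -0.09 to 4.48, whereas the 2 of Igf2r lie at 0.995 and 1.03.

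Other genes reported as imprinted in at least some mouse tissues gave a share of calls near that of all genes. Their share of differences of at least 1 was larger. This list was chosen with earlier results of these data known, and the larger share was not tested. Of 52 listed, 35 were measured, and 8 were higher in A_212, 7 were lower and 20 did not pass (42.9% called, beside 39.2% of all genes), with a median difference of -0.04. Of the 35, 7 (20%) passed with a difference of at least 1, beside 5.83% of all genes. Grb10, whose protein binds and restrains the insulin receptor, was at 2.26, 2.31 and 2.10 in A_212 and at -2.32, -2.15 and -2.25 in N_46, a difference of 4.46 ± 0.08 that is close in size and opposite in sign to that of Mest. Its 3 probe sets ran from 2.79 to 6.44. Also higher in A_212 by at least 1 were the paraoxonase gene Pon3 (3.10), Qpct, an enzyme gene of peptide maturation (1.83), the matrix genes Smoc1 (1.78) and Dcn (1.51), and the Polycomb-related gene Sfmbt2 (1.11). The homeobox gene Dlx5 was lower by at least 1 (-1.26 ± 0.16, limma adjusted p = 9.9e-05). Near Peg10 on chromosome 6, Casd1 (-0.35) and Pon2 (-0.62) were lower in A_212, whereas Pon3 was higher. Tfpi2, also listed and on chromosome 6, differed by -0.08 and did not pass (limma adjusted p = 0.49).

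Genes that set, keep or read DNA methylation and imprints were called about as often as all genes. Of 22 measured among 30 listed, 3 were higher in A_212 (13.6%, beside 18.3% of all genes), 6 were lower (27.3%, beside 20.9%) and 13 did not pass. The differences lay between -0.52 and 0.42. Their median absolute difference was 0.196, beside 0.174 over all genes, and the arrays of the lines were fully apart in 68.2% of them, beside 51.1% of all genes. The methyltransferase gene Dnmt3a (0.32), the imprint-protecting zinc finger gene Zfp57 (0.34) and the methyl-CpG binding gene Mbd2 (0.42) were higher in A_212. Ctcf, which encodes the insulator protein of the Igf2-H19 control region, was lower (-0.41 ± 0.08, limma adjusted p = 0.0025), as were Mbd3 (-0.52), the Polycomb gene Eed (-0.34) and Dppa3 (-0.28). The maintenance methyltransferase gene Dnmt1 differed by 0.20 (adjusted p = 0.051), Dnmt3b by -0.19 (adjusted p = 0.10) and Trim28, the partner of Zfp57, by -0.13 (adjusted p = 0.21). With arrays set to the same median, 6 of these genes were higher and 4 were lower in A_212, so the balance of directions in this list turned with the scaling.

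Markers of cell types differed between the same arrays, where 39.2% of all genes were called (18.3% higher and 20.9% lower in A_212). Among 22 markers of fibroblasts and mesenchyme, 13 rose in A_212 relative to N_46, 2 were lower and 7 did not pass (68.2% called), with a median difference of 0.45. Their mean per array ran from 0.71 to 0.88 in A_212 and from -0.86 to -0.69 in N_46. Of 14 neural progenitor markers, 2 were higher in A_212, 9 were lower and 3 did not pass (78.6% called), with array means from -0.74 to -0.61 in A_212 and from 0.60 to 0.66 in N_46. Of 18 neuronal markers, 3 were higher, 3 were lower and 12 did not pass (33.3% called), with array means from 0.09 to 0.12 in A_212 and from -0.15 to -0.10 in N_46. Their median difference was -0.08, opposite in sign to that of the means. The 3 higher were Stmn2 (3.09), Eno2 (1.47) and Tubb3 (1.13), and the 3 lower were Ncam1 (-0.39), Map2 (-0.25) and Gap43 (-0.24). Of 11 astrocyte markers, 4 were higher, 2 were lower and 5 did not pass (54.5% called), with array means from -0.13 to 0.12 in A_212 and from 0.02 to 0.09 in N_46. Dcn stands in both the fibroblast list and the list of other imprinted genes. Centred values do not show whether any marker was absent. Fewer cells of a type and less RNA per cell cannot be told apart here, and the part of these markers in the differences of imprinted genes was not tested.

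**Figure D5:**
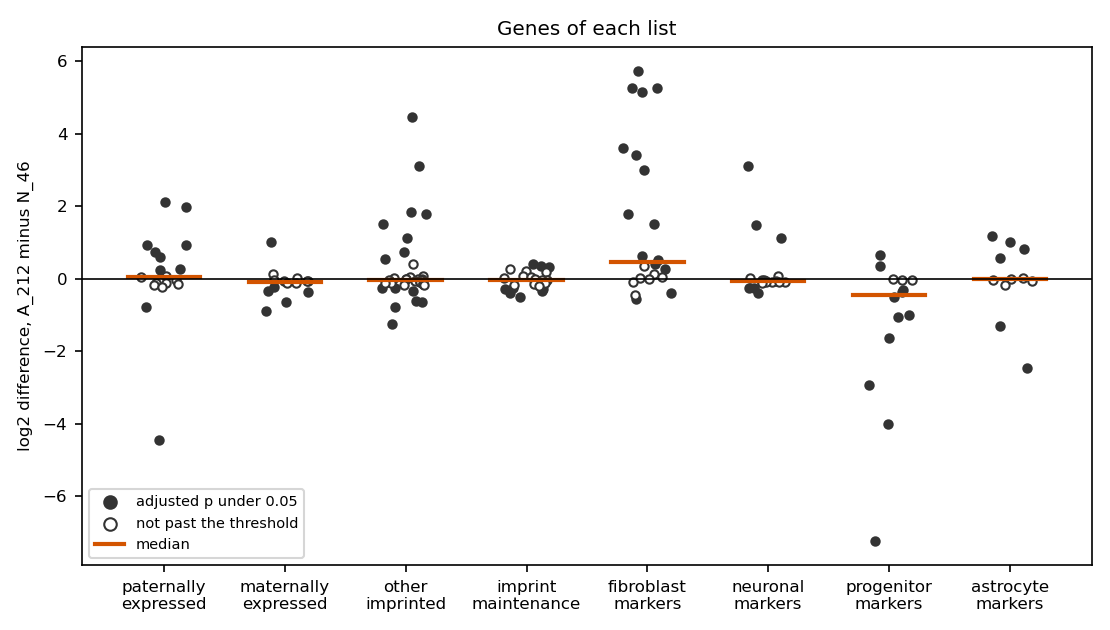
Log2 difference, A_212 minus N_46, of each measured gene of 8 lists, with filled points past the test and the median as a bar. Paternally and maternally expressed members have medians of 0.06 and -0.09, fibroblast markers 0.45 and progenitor markers -0.44.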

How the data were processed

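RNA of 6 plates was measured, 3 of A_212 and 3 of N_46, with 5 µg of total RNA per labelling, per the labels' protocols. The deposited values are log2 values that the submitters' processing notes credit to RMA (background correction, quantile normalisation and probe summary). Neither its version nor the log base is stated, and base 2 was taken because RMA gives it. Every one of the 22690 probe sets has a median of 0 within 1e-05, and no source says who centred them. Centring makes the middle arrays of a probe set mirror each other, and quantile normalisation would hide a difference in total RNA.

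Gene names came from the platform annotation. Probe sets naming several genes (691) and 64 controls were left out, which kept 20380 probe sets of 12393 genes. A gene's value was the mean of its probe sets. All genes were fitted together in limma (lmFit, then eBayes), two-sided. The members and lists were chosen with earlier results of these data known, so lists are described by counts and medians. All measured members were named, with up to 8 other imprinted genes each way with a called difference of at least 1, up to 4 called maintenance genes each way, and Dnmt1, Dnmt3a, Dnmt3b, Ctcf, Trim28 and Zfp57. Casd1, Pon2, Tfpi2 and the printed promoter pairs were picked after their values were seen. The limma step was tested on simulated data. R 4.3.3, limma 3.58.1, Python 3.11.15, pandas 2.3.3, numpy 2.4.6 and matplotlib 3.10.9 were used.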

Additional observations from a re-analysis of the deposited data

How the results depend on the processing

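Of the 16 imprinted genes that passed the test, 12 passed in each setting run for them, and 0 of the 16 changed sign in any of theirs. Nnat and Copg2, among the 12, have no plain probe set and were run in 13 settings, the other 10 in 14. The exceptions were Peg12, Sgce, Slc38a4 and Tssc4. Of the 17 other members, 3 passed in some setting (Rasgrf1, Plagl1 and Cd81), and 10 of the 33 changed sign in some setting, with no call on either side. The settings were a common median for all arrays, a common 75th percentile, array weights, plain probe sets alone, the median over probe sets, robust eBayes, a replicate block, each chromosome's median taken out, and each array left out in turn.

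With 1 array left out, the members that passed numbered 12 to 16, with 6 to 8 higher and 6 to 8 lower in A_212. The paternally expressed members higher in A_212 numbered 5 to 7, and the lowest count came without N_46 plate 1. Medians ran from -0.11 to -0.032 over all members, from 0.017 to 0.10 over the paternally expressed and from -0.15 to -0.065 over the maternally expressed, other imprinted genes lower in A_212 numbered 4 to 7, and maintenance genes higher in A_212 numbered 3 to 5. Tested one by one, 15 member probe sets were higher in A_212, against 9 genes, because several probe sets read 1 gene. Plain probe sets alone gave 3 maternally expressed members lower in A_212, with fewer genes tested and Copg2 and Tssc4 not among them. With array weights the median of the maternally expressed members was -0.14 and 6 maintenance genes were higher. Maintenance genes higher in A_212 numbered 6 with arrays set to the same median and 5 with the same 75th percentile, against 3 as reported. With each chromosome's median taken out, medians were 0.046 over all members, 0.15 over the paternally and 0.0033 over the maternally expressed, and 2 maternally expressed members were higher. Single probe sets of Ndn at -0.040 and -0.089 had the opposite sign to the gene's mean without passing. The cause of these changes was not tested.

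The titles number the plates 1 to 3 in both lines. Deviations of same-numbered arrays from their line means correlated at -0.03, -0.01 and 0.09 across genes, so the numbers were not taken as pairs. With the replicate block, 15 members passed against 16, and Tssc4 lost its call. Centred values carry no signal over background, so genes near background cannot be told from genes that do not differ.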
